A study of Mus musculus with 2 samples.

Results

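Costimulatory receptors give a T cell the second signal that it needs beside the one from its antigen receptor. Tnfrsf4, Tnfrsf9, Tnfrsf18, Tnfrsf1b, Cd27, Icos and Cd28 were followed here, 7 of the 31053 genes in the expression matrix of this tumour series. They were taken by name and not by a cut on any measured value, though earlier results of these data were known. The question was in which of the lymphocytes each receptor was transcribed, and how its level varied between them.

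The series holds mouse tumour cells, under a title on ACSS2 inhibitors in triple negative breast cancer. ACSS2 is an enzyme that makes acetyl-CoA from acetate. Live cells of 3 vehicle samples and 3 samples treated with the inhibitor (ACSS2i), 4000 to 6000 cells of each, had been joined into 1 suspension and loaded on 1 lane for 3′ single-cell RNA sequencing. The strain label reads "NGS mouse", the tissue label is tumor, and the series text names Bmal1 status. The sources used here give no tumour line, animal age, dose or duration. The samples were told apart by 6 antibody tags, named D0, D1, D4, U2, U3 and U4. The labels used here do not say which tag is vehicle and which is ACSS2i, so vehicle and inhibitor could not be compared. Each tag is therefore given as 1 sample of unknown treatment, and no p-value was computed.

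Of 9747 barcodes, 8784 had at least 500 genes and under 15% mitochondrial counts. The lymphocytes were taken by fixed gates on unique molecular identifiers (UMIs, each 1 captured transcript). A T cell had at least 2 UMIs of Cd3d, Cd3e and Cd3g together. CD8 T cells also had at least 1 UMI of Cd8a or Cd8b1. The regulatory T gate took T cells with no Cd8 UMI and at least 1 of Foxp3, Ikzf2 or Il2ra. All remaining T cells are called other T. Natural killer (NK) cells had a UMI of Ncr1 or Klrb1c and none of the CD3 genes. Barcodes with 2 or more tags and barcodes with 5 or more UMIs of the keratins Krt8 and Krt18 were set aside. Of 1033 lymphocytes in the gates, 305 CD8 T, 251 regulatory T gate, 156 other T and 117 NK cells remained. Their median depth was 1766, 1701, 1337 and 3302 UMIs. Together they held 1928805 gene UMIs, of which 4063 came from the 7 receptors.

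The receptors belong to 2 families. OX40 (Tnfrsf4), GITR (Tnfrsf18), 4-1BB (Tnfrsf9), TNFR2 (Tnfrsf1b) and CD27 are members of the TNF receptor superfamily, which bind trimeric ligands on antigen-presenting cells and signal through TRAF adaptors to NF-kB. CD28 and ICOS are immunoglobulin-family receptors that signal through phosphoinositide 3-kinase. CD28 and CD27 are typically present on resting T cells. OX40, 4-1BB and ICOS are typically induced by activation, and OX40, GITR, ICOS and TNFR2 are known for high expression on regulatory T cells, including those in tumours.

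The genes were placed in the annotation of mouse build GRCm38. Tnfrsf4 (ENSMUSG00000029075) is at chr4:156013843-156016612 and Tnfrsf18 (ENSMUSG00000041954) at chr4:156026164-156028895, both on the plus strand. They are 9551 bases apart, with 2 other genes and 0 protein-coding genes between them. Tnfrsf9 (ENSMUSG00000028965, chr4:150914562-150946102, plus strand) and Tnfrsf1b (ENSMUSG00000028599, chr4:145213463-145246870, minus strand) are on the same chromosome but megabases away, with 83 protein-coding genes between Tnfrsf9 and Tnfrsf4 and 75 between Tnfrsf1b and Tnfrsf9. Cd28 (ENSMUSG00000026012, chr1:60716800-60773359), the inhibitory receptor gene Ctla4 (ENSMUSG00000026011, chr1:60887000-60915832) and Icos (ENSMUSG00000026009, chr1:60977927-61000320) follow each other on the plus strand. The gaps there are 113.6 and 62.09 kb, with 0 protein-coding genes in either. Cd27 (ENSMUSG00000030336) is at chr6:125232622-125237010 on the minus strand.

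Upstream sequence was looked up for all 7 receptors in a RefSeq promoter table (GRCm38.p6), which matched 5 of them with 6 start sites. The neighbours Tnfrsf4 and Tnfrsf18 are shown because their transcripts had the most similar profiles of any 2 receptors (r = 0.96 over 14 sums of a class in a tag). The stretches are the bases of the 250-base upstream window outside annotated exons, chr4:156013611-156013694 and chr4:156026072-156026163, plus strand, 5′ to 3′.
Tnfrsf4: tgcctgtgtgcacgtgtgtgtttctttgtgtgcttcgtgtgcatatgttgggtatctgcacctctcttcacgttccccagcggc
Tnfrsf18: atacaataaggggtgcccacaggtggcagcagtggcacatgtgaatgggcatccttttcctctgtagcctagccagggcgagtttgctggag

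Short motifs of factors that act in activated T cells were searched on both strands of the 250 bases before each start site. These were GGGANTTNCC for NF-kB, TGANTCA for AP-1 and TGTGGT for RUNX. Of 32851 windows in the table, 0.980% held the first, 6.75% the second and 14.0% the third. Among the 6 receptor windows, 1 held any of the 3. It was the downstream start site of Tnfrsf9, which had the NF-kB letters 42 to 33 bases and the AP-1 letters 15 to 9 bases before the start. They are shown because Tnfrsf9 was the receptor transcribed most widely outside lymphocytes. The stretches are chr4:150927947-150927976 and chr4:150927973-150927998, plus strand, with the matching letters in capitals. Unlike the stretches of Tnfrsf4 and Tnfrsf18, both lie in annotated exon sequence, which makes up 81 bases of this window.
Tnfrsf9, NF-kB letters: agagcagctgGGGATTTCCCaggaggccct
Tnfrsf9, AP-1 letters: ccctgctcagtTGAGTCAcaggtcct
The 3′ counts do not show which start site was used, and a match is no evidence of binding.

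The gates were checked against marker genes. Levels are in CPM, the UMIs of a gene scaled to a total of 1000000 gene UMIs. NK cells had 3567 CPM over 6 NK genes, 2 of them gate genes, against 265 in CD8 T and 133 in the regulatory T gate. The regulatory T gate was a mixture, as Il2ra and Ikzf2 are also transcribed in other activated T cells. Foxp3, the defining factor of regulatory T cells, was seen in 60 of its 251 cells, 74 more had Il2ra without Foxp3, and 117 entered on Ikzf2 alone. Cd4 transcripts were at 103 CPM in the gate, 118 in other T and 3.1 in CD8 T. Other T cells have no UMI of the gate genes, but 3 more of 6 regulatory T genes (Ctla4, Ikzf4 and Capg) were detected in them. These summed to 927 CPM in U2 and 161 in U3. Whether other T holds regulatory T cells that lacked a gate UMI was not tested. Conversely, 89 of 305 CD8 T cells carried a UMI of Foxp3, Ikzf2 or Il2ra, with Foxp3 in 3 of them. Genes typical of group 2 innate lymphoid cells, which regulatory T cells of tissues also express (Gata3, Il1rl1, Areg and Rora, all 4 detected), summed to 1352 CPM in the gate, 321 in CD8 T, 380.2 in other T and 132 in NK. Their part in the receptor levels was not tested. The class is therefore called the regulatory T gate throughout.

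The tags U3 and D1 stood apart. In U3, CD8 T cells had 2119.6 CPM of 5 naive T cell genes (Lef1, Ccr7, Il7r, Tcf7 and Satb1), against 414 to 687 in U2, D0 and D1. Other T cells of U3 had 2759 CPM of these genes, against 811 in U2, and 86 of 96 B cells came from U3. In D1, RNA of 7 macrophage genes, all detected, summed to 2499.9 CPM in CD8 T, 2996 in the regulatory T gate and 1119.6 in NK. In the other tags these sums were 7.88 to 37.0, 0 to 58.9 and 11.2 to 92.3 CPM. Lyz2 alone was at 925 CPM in CD8 T of D1, against 0 to 37.0 elsewhere. Receptor calls between classes that changed without U3 or D1 are given both ways. Calls on single ligands and on genes of the other lists were not repeated without these tags. Readings within a class, of receptor pairs and of similar profiles were not repeated without D1, and its part in them was not tested. Cells per tag ran from 25 to 110 for CD8 T in U2, U3, D0 and D1 and from 25 to 94 for the regulatory T gate in all tags but D4. U2 and U3 held 36 and 78 other T cells, and U2, D0 and D1 held 30, 25 and 41 NK cells. Tags with fewer than 20 cells of a class enter its sum but not its per-tag values.

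By class sum, the 4 receptors Tnfrsf4, Tnfrsf18, Icos and Tnfrsf9 were highest in the regulatory T gate, and Cd28 and Cd27 differed little between it and CD8 T. NK cells had no Tnfrsf4 UMI, little Icos, and by class sum more Tnfrsf9 than CD8 T, a call that was lost without U3. A level here is the summed UMIs of a gene in a class as CPM of all gene UMIs of that class, with an exact Poisson 95% interval that covers counting error only. Levels were compared between classes of cells and never between genes.

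**Figure D1:**
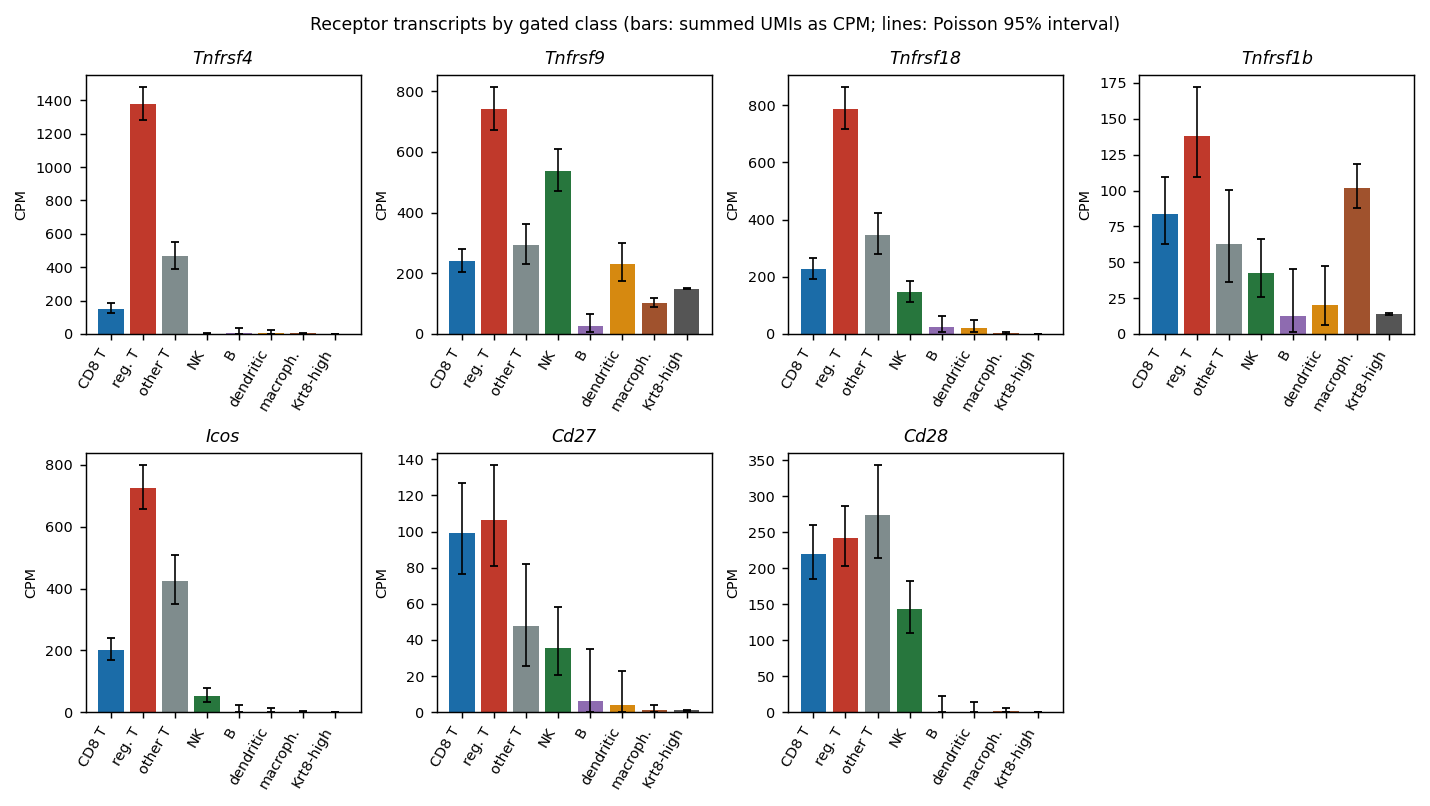
Level of each receptor gene (CPM, vertical axes start at 0 and differ between genes) in the gated classes, with bars for the summed UMIs and lines for the exact Poisson 95% interval. Tnfrsf4 stands at 1380.4 CPM in the regulatory T gate and at 0 in NK cells, while Tnfrsf9 and Tnfrsf1b also have bars in macrophages and Krt8-high barcodes.

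Tnfrsf4, which encodes OX40, was at 1380.4 CPM (1285 to 1481) in the regulatory T gate. It was at 465 (387 to 554) in other T and 152 (123 to 185) in CD8 T. No Tnfrsf4 UMI was found among 447209 NK UMIs, which allows up to 6.71 CPM. The sums of the 4 classes thus stood in this order, with no interval overlapping the next. Over tags U2, U3, U4, D0 and D1 the regulatory T gate had 1115, 911, 1090.0, 1160.5 and 1677 CPM. CD8 T cells of U2, U3, D0 and D1 had 165, 4.95, 185 and 450.0 CPM. Every tag of the regulatory T gate was above every tag of CD8 T, and U3 was the lowest in both. In other T cells U2 had 1340.2 CPM and U3 had 53.7, so the class sum joined 2 very different samples. Within U2, other T was above the regulatory T gate, with overlapping intervals, so the order of these classes did not hold there. All 3 tags of NK cells were at 0.

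Tnfrsf18 encodes GITR. Its level was 788 CPM (716 to 864) in the regulatory T gate, 347 (280.4 to 425) in other T, 226 (191 to 266) in CD8 T and 145 (112 to 185) in NK. The intervals of neighbours in this order did not overlap. By tag, U2, U3, U4, D0 and D1 of the regulatory T gate had 746, 533, 574, 712 and 933 CPM. For CD8 T the values were 272, 84.2, 222 and 362 CPM in U2, U3, D0 and D1, again below every tag of the regulatory T gate. NK cells of U2, D0 and D1 had 154, 78.7 and 127 CPM, which overlapped CD8 T. Other T cells had 761 CPM in U2, close to the regulatory T gate of that tag, and 69.0 in U3.

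Icos encodes the receptor for ICOS ligand, and is used by follicular helper and regulatory T cells. It was at 726 CPM (657 to 799) in the regulatory T gate, 424 (350.5 to 509.5) in other T, 203 (169.6 to 241) in CD8 T and 51.4 (32.6 to 77.2) in NK. By tag the regulatory T gate had 603, 447, 295, 959 and 887 CPM in U2, U3, U4, D0 and D1, and CD8 T had 232, 89.1, 111 and 450.0 in U2, U3, D0 and D1. The 2 ranges overlapped, with U4 of the regulatory T gate below D1 of CD8 T. NK cells had 71.8, 45.0 and 58.1 CPM in U2, D0 and D1, all below the lowest CD8 T tag. Other T cells had 529 CPM in U2 and 329.6 in U3, a smaller gap than for Tnfrsf4 and Tnfrsf18.

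Tnfrsf9 encodes 4-1BB, which is induced on CD8 T and NK cells by activation. Its order was a different one, with 739.8 CPM (671 to 814) in the regulatory T gate, 537 (471 to 609) in NK, 292 (231 to 363) in other T and 240.1 (204 to 281) in CD8 T. The intervals of the last 2 classes overlapped. NK cells of U2, D0 and D1 had 308, 709 and 496 CPM. CD8 T cells had 279.7, 54.5, 259 and 475 CPM in U2, U3, D0 and D1. The NK level was thus far above CD8 T in D0 only, and close to it in U2 and D1. In the regulatory T gate the values were 708, 258, 899, 495 and 914 CPM in U2, U3, U4, D0 and D1, so its range took in all NK tags. Within U3 the level was low in each T class, with 46.0 CPM in other T against 860.3 in U2.

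Tnfrsf1b encodes TNFR2, the TNF receptor of regulatory T cells and myeloid cells. It had 138 CPM (109 to 172) in the regulatory T gate, 83.6 (62.8 to 109) in CD8 T, 62.7 (36.6 to 100.5) in other T and 42.5 (25.6 to 66.3) in NK. The last 3 overlapped each with the next. Per tag the regulatory T gate had 143, 51.6, 88.4, 139 and 152 CPM in U2, U3, U4, D0 and D1. CD8 T had 138, 14.9, 37.0 and 150.0 CPM in U2, U3, D0 and D1, so D0 and U3 of CD8 T lay below the lowest tag of the regulatory T gate and U2 and D1 within its range. The counts behind these values were small.

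Cd27 encodes a receptor for CD70 that is typical of naive and early memory T cells. The regulatory T gate and CD8 T had 106 CPM (81.0 to 137) and 99.1 CPM (76.3 to 127), and other T and NK had 48.0 (25.6 to 82.1) and 35.8 (20.4 to 58.1). By tag, CD8 T had 94.5, 89.1, 148 and 112 CPM in U2, U3, D0 and D1, and NK had 30.8, 45.0 and 26.4 in U2, D0 and D1. All NK tags lay below all CD8 T tags. In CD8 T, U3 was thus close to U2, which it was not for the 5 receptors above. In other T, Cd27 had 76.6 CPM in U3 and 16.5 in U2.

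Cd28 encodes the classical costimulatory receptor for CD80 and CD86. Its level was 273 CPM (214 to 343) in other T, 242 (204 to 287) in the regulatory T gate, 219.9 (185 to 259) in CD8 T and 143 (110.2 to 183) in NK. The 3 T classes overlapped in their intervals. CD8 T had 236, 163, 333 and 225 CPM in U2, U3, D0 and D1, and NK had 144, 157 and 137 in U2, D0 and D1. Each NK tag was below each CD8 T tag, by a small margin at U3. The regulatory T gate ran from 68.8 CPM in U3 to 371 in D0, and other T cells had 265 in U2 and 329.6 in U3.

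**Figure D2:**
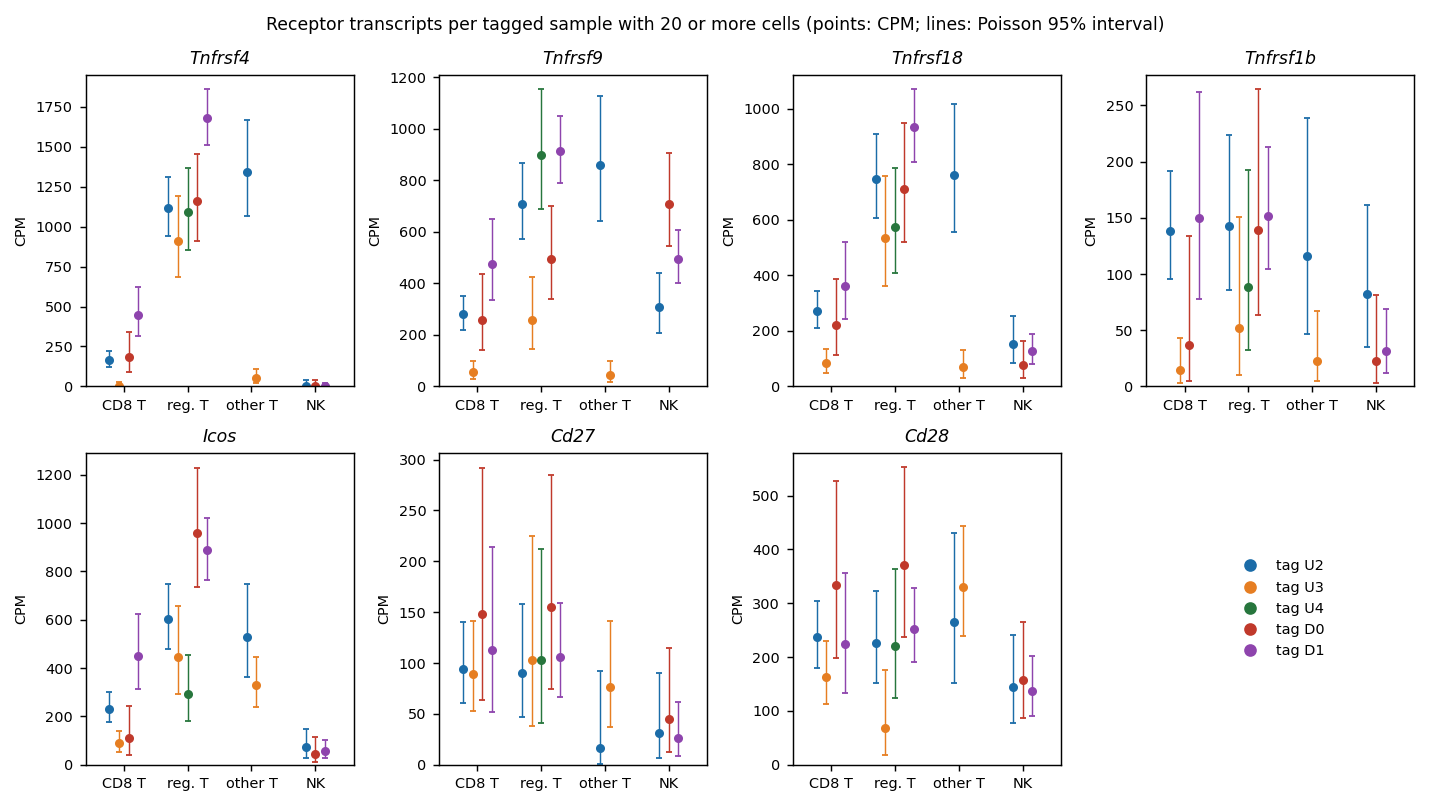
Level of each receptor gene (CPM, vertical axes start at 0 and differ between genes) for every tagged sample with at least 20 cells of a class, with lines for the exact Poisson 95% interval. For Tnfrsf4 and Tnfrsf18 all points of the regulatory T gate are above all CD8 T points, and U3 gives the lowest CD8 T point of each gene, from 4.95 CPM for Tnfrsf4 to 163 for Cd28.

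For the comparison of classes, a gene was called higher or lower where the ratio of the 2 levels was at least 2-fold and their Poisson intervals did not overlap. It was asked of all genes with 20 or more UMIs over both classes, and the share of all genes called is given as the background. Ratios carry an exact binomial 95% interval. These calls compare the cells of 1 pool and are no test over animals.

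Between the regulatory T gate and CD8 T, 4 of the 7 receptors were called higher, where 5.20% of 6044 genes were, and 0 were called lower, against 1.39%. Tnfrsf4 was 9.09-fold higher (7.36 to 11.3), Icos 3.58-fold (2.93 to 4.39), Tnfrsf18 3.48-fold (2.88 to 4.23) and Tnfrsf9 3.08-fold (2.56 to 3.73). Each of the 4 was higher in 4 of 4 tags with enough cells. Tnfrsf1b had a ratio of 1.65 (1.15 to 2.38), Cd28 of 1.10 (0.865 to 1.40) and Cd27 of 1.07 (0.740 to 1.55), and none of these was called. The intervals of Cd27 and Cd28, which cover counting error only, did not reach 2-fold. With at least 1000 genes Cd27 was at 0.606 (0.335 to 1.08), and with Foxp3 alone as the gate at 1.53 (0.898 to 2.52). Both of these intervals took in 2-fold. Without U3 the ratios were 6.56 for Tnfrsf4, 2.97 for Icos, 2.81 for Tnfrsf18 and 2.45 for Tnfrsf9, all still called, where 4.59% of genes were. Without D1, whose cells carried macrophage RNA, Tnfrsf4 stood at 10.9, Icos at 3.72, Tnfrsf18 at 3.37 and Tnfrsf9 at 3.05. With the gates as first written, multi-tag and keratin-rich barcodes included, Tnfrsf4 was at 6.27, Icos at 2.85 and Tnfrsf18 at 2.62, and Tnfrsf9, just under 2-fold, missed the call (1.73 to 2.31). In barcodes with at least 1000 genes, Tnfrsf4 was at 4.82 and Icos at 2.55, both called, while Tnfrsf18 at 1.91 and Tnfrsf9 at 1.75 were not. Without U2, Tnfrsf1b was called as well, at 2.81 (lower bound 1.65).

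**Figure D3:**
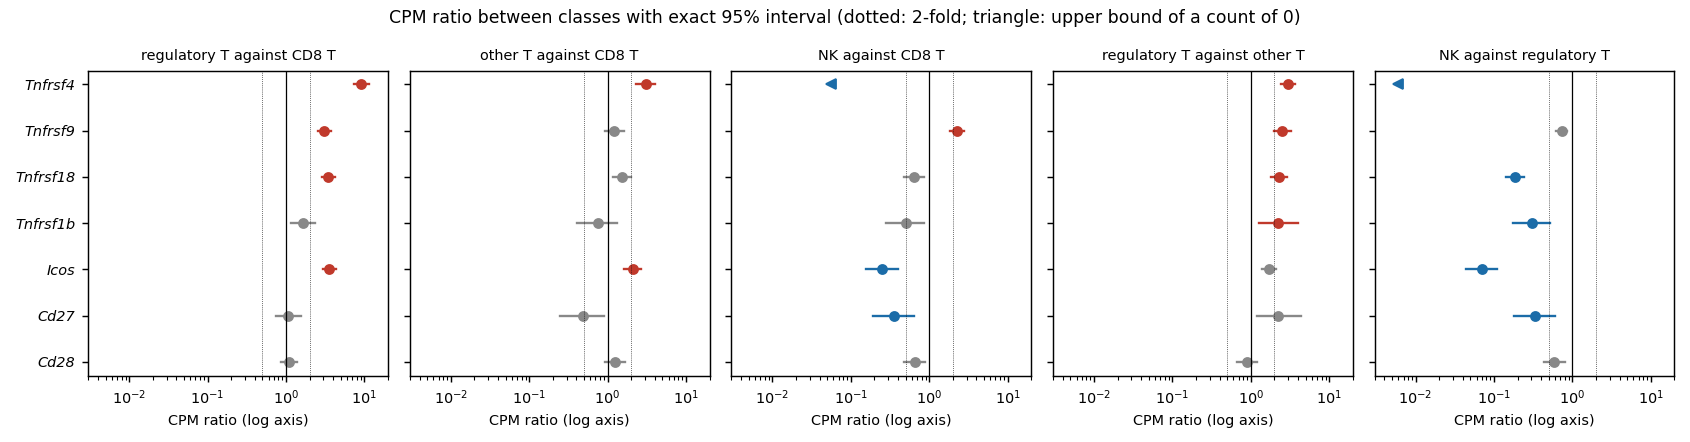
Ratio of receptor levels between classes (log axis) with the exact binomial 95% interval, dotted lines at 2-fold and a triangle for the upper bound where the count was 0, in red where called higher, blue where called lower and grey where not called. In the regulatory T gate against CD8 T, Tnfrsf4 (9.09), Icos (3.58), Tnfrsf18 (3.48) and Tnfrsf9 (3.08) lie beyond 2-fold, and Cd27 (1.07) and Cd28 (1.10) lie near 1.

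Other T cells against CD8 T gave 2 receptors called higher, where 1.95% of 5071 genes were, and 0 lower, against 2.23%. Tnfrsf4 was 3.06-fold higher (2.33 to 4.03) and Icos 2.09-fold (1.61 to 2.71). Tnfrsf18 had a ratio of 1.53 (lower bound 1.17), Cd28 of 1.24, Tnfrsf9 of 1.21, Tnfrsf1b of 0.750 and Cd27 of 0.484. The comparison rested on U2 and U3, which differed. Without U3, Tnfrsf4 was at 3.88, Tnfrsf18 at 2.08 and Icos at 2.01, all called higher, where 2.55% of genes were, and Cd27 at 0.206 was called lower, where 2.63% were. Without U2, Tnfrsf4 was at 1.5 and was not called, and Icos missed the call without D0 or without D4, at 1.97 and 1.96. With the gates as first written, Tnfrsf4 at 1.51 and Icos at 1.14 were not called, and Tnfrsf1b at 0.379 and Cd27 at 0.274 were called lower.

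NK cells against CD8 T gave 1 receptor higher, where 2.88% of 5520 genes were, and 3 lower, where 4.44% were. Tnfrsf9 was 2.24-fold higher in NK (1.82 to 2.75). It was higher in 3 of 3 tags, but by little in U2 and D1. It was not called without U3, at 1.66, where 2.32% of genes were, nor with the gates as first written, at 1.91. The 5 NK cells of D4 gave 45 of its 240 UMIs in NK, and the call held without D4. Tnfrsf4 was at least 22.6-fold lower, with 3 UMIs set as the limit for NK, and the exact interval of the ratio reached up to 0.0554. Icos was 3.95-fold lower (2.52 to 6.44) and Cd27 2.77-fold lower (1.58 to 5.13). Without D1 the ratio of Cd27 was 0.439 and was not called, and without U3 Tnfrsf1b was called lower as well, where 4.09% of genes were. Cd28 (1.54-fold lower), Tnfrsf18 (1.56-fold) and Tnfrsf1b (1.97-fold) did not reach the call, with upper bounds of 2.10, 2.12 and 3.52.

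In the regulatory T gate against other T, 4 receptors were called higher, where 5.21% of 4986 genes were, and 0 lower, against 1.66%. They were Tnfrsf4 at 2.97 (2.46 to 3.61), Tnfrsf9 at 2.54 (1.99 to 3.27), Tnfrsf18 at 2.27 (1.81 to 2.87) and Tnfrsf1b at 2.20 (1.29 to 3.97). Cd27 at 2.21, whose level intervals overlapped, Icos at 1.71 and Cd28 at 0.888 were not called. None of the 4 that were called passed without U3, at 1.69, 1.53, 1.35 and 1.48, while Cd27 was, at 4.99, where 3.07% of genes were. Without U2 the ratios of Tnfrsf4, Tnfrsf9 and Tnfrsf18 were larger, at 6.84, 5.84 and 3.51. Within U2 these 3 were higher in other T (1340.2, 860.3 and 761 CPM) than in the regulatory T gate (1115, 708 and 746), with overlapping intervals. Within U3 they were lower in other T (53.7, 46.0 and 69.0 against 911, 258 and 533). Tnfrsf1b was lower in other T in both tags. In barcodes with at least 1000 genes, none of the 4 was called, at 1.90 for Tnfrsf4, 1.37 for Tnfrsf9, 1.4 for Tnfrsf18 and 4.31 for Tnfrsf1b. NK cells against the regulatory T gate gave 0 receptors higher, where 3.23% of 5504 genes were, and 5 lower, where 9.87% were. Tnfrsf4 was at least 206-fold lower, Icos 14.1-fold, Tnfrsf18 5.42-fold, Tnfrsf1b 3.25-fold and Cd27 2.97-fold. The bound for Tnfrsf4 uses the same limit of 3 UMIs, and its exact interval reached up to 0.00599. Without D1, Cd27 had a ratio of 0.401 (0.184 to 0.802) and was not called. Tnfrsf9 had a ratio of 0.725 (0.616 to 0.852), the smallest gap of the 5 TNF receptors.

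After its mixture had been seen, the regulatory T gate was read in 3 portions. In the 60 cells with a Foxp3 UMI, 5 receptors were called higher than in CD8 T, where 6.30% of 4696 genes were. Tnfrsf4 was at 2007 CPM, 13.2-fold above CD8 T (10.5 to 16.8), Tnfrsf18 at 1076 (4.76-fold), Icos at 931 (4.59-fold), Tnfrsf9 at 1083 (4.51-fold) and Tnfrsf1b at 186 (2.23-fold). Without U3 the first 4 kept the call, with 10.6, 4.03, 4.11 and 3.83, where 4.59% of 3836 genes were called, and Tnfrsf1b missed it at 1.92. In the 74 cells with Il2ra but no Foxp3, Tnfrsf4 was at 1846 CPM, Icos at 1009, Tnfrsf18 at 1026 and Tnfrsf9 at 865. These 4 were called, where 5.69% of genes were.

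The 117 cells that entered on Ikzf2 alone differed. Tnfrsf4 was at 651 CPM, 4.29-fold above CD8 T (3.31 to 5.58), and was the only receptor called, where 2.42% of 4994 genes were. Tnfrsf18 at 434 CPM, Tnfrsf9 at 438 and Icos at 388 had ratios of 1.92, 1.82 and 1.91. Cells with Foxp3 exceeded them 3.08-fold in Tnfrsf4, 2.48-fold in Tnfrsf18, 2.47-fold in Tnfrsf9 and 2.40-fold in Icos, all called, where 4.82% of 2866 genes were. The cytotoxic granule gene Nkg7 stood at 797 CPM in the Ikzf2 portion, 172 with Foxp3, 216 with Il2ra and 1642 in CD8 T. The granule protease gene Gzmb ran the other way, at 768 CPM in the Ikzf2 portion, 1276 with Foxp3, 993 with Il2ra and 782 in CD8 T. Cd4 was at 66.7 CPM in the Ikzf2 portion, 166 with Foxp3 and 99.8 with Il2ra. The inhibitory receptor Ctla4 followed the receptors, at 1048 CPM with Foxp3, 865 with Il2ra and 321 with Ikzf2 alone. The median depth of the 3 portions was alike, at 1742 UMIs with Foxp3, 1637 with Il2ra and 1718 with Ikzf2 alone. Their make-up by tag was not. D1, the highest per-tag value of the gate for Tnfrsf4, Tnfrsf18 and Tnfrsf9, gave 29 of the 60 cells with Foxp3. It gave 34 of the 74 with Il2ra and 31 of the 117 with Ikzf2 alone. Foxp3 against Ikzf2 alone was compared over all tags only, and the part of the tags in it was not tested.

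**Figure D4:**
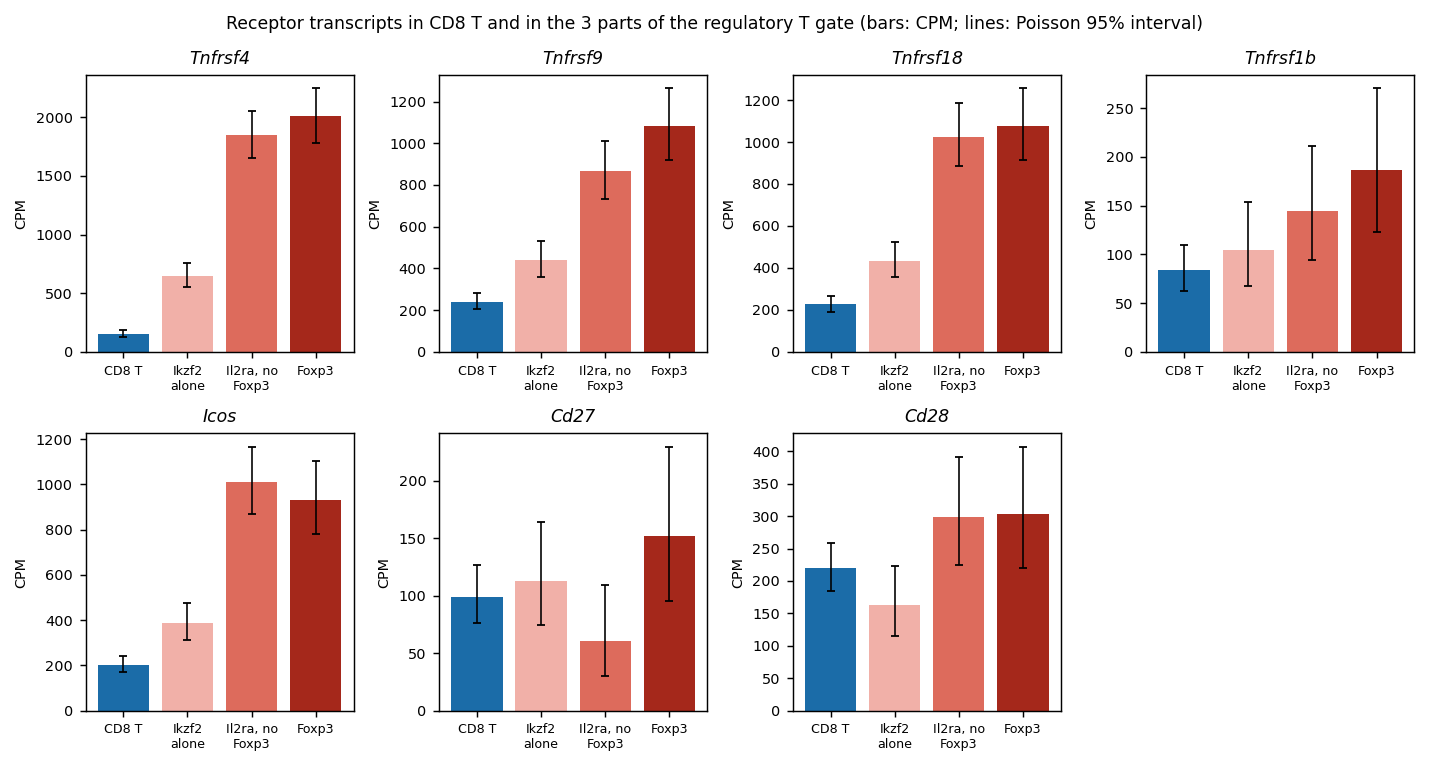
Level of each receptor gene (CPM, vertical axes start at 0) in CD8 T cells and in the 3 portions of the regulatory T gate, with lines for the exact Poisson 95% interval. Tnfrsf4 runs from 152 in CD8 T over 651 with Ikzf2 alone to 1846 with Il2ra and 2007 with Foxp3, while Cd28 stays between 163 and 303.

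The share of cells with a UMI showed whether a high level came from few cells. Every cell was thinned to 1000 UMIs, which left out 8 CD8 T, 18 regulatory T gate, 19 other T and 2 NK cells that had fewer. Tnfrsf4 was seen in 51.1% of the regulatory T gate (44.5 to 57.7), 23.4% of other T, 8.42% of CD8 T and 0 of 115 NK cells, which allows up to 2.61%. Tnfrsf18 was seen in 54.9%, 22.6%, 22.2% and 16.5% of these classes, and Icos in 45.5%, 26.3%, 16.8% and 1.74%. For Tnfrsf9 the shares were 43.3% of the regulatory T gate, 32.2% of NK, 15.3% of other T and 14.8% of CD8 T. Cd28 was seen in 21.9% of the regulatory T gate and 19.5% of CD8 T, Cd27 in 12% and 7.74%, and Tnfrsf1b in 16.7% and 8.42%. Unthinned, the shares for Tnfrsf4 in the regulatory T gate, other T and CD8 T were 62.9%, 26.9% and 13.4%. In Krt8-high barcodes, which carry keratins and no Ptprc and had a median of 26103 UMIs, the thinned shares of Tnfrsf4, Tnfrsf18, Icos, Cd27 and Cd28 were 0.108% or lower. Both the level and the share thus put these 5 receptors in lymphocytes.

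At equal depth, a cell of the regulatory T gate showed a mean of 2.45 of the 7 receptors, against 1.2 in other T, 0.980 in CD8 T and 0.704 in NK. At least 3 receptors were seen in 51.1% of the regulatory T gate (44.5 to 57.7), 14.6% of other T, 9.09% of CD8 T and 2.61% of NK. At least 5 were seen in 29 cells of the regulatory T gate, 3 other T cells, 1 CD8 T cell and 0 NK cells. The receptors of the regulatory T gate were thus carried by the same cells in part. In it, 6 of 21 pairs of receptors were seen together more often than apart, meaning that the share of cells with the one was higher among cells with the other, with intervals that did not overlap, in at least 1 of the 2 readings of a pair. Of all pairs among the 3295 genes seen in 10 or more of these thinned cells, 0.365% were. Genes seen in few cells have wide intervals that seldom part, so this share is not matched to genes seen as often as these receptors. No share at matched detection was computed. The 6 were all the pairs among Tnfrsf4, Tnfrsf9, Tnfrsf18 and Icos, each seen in 101 to 128 of the 233 cells. The levels of all of these differed between portions of the gate. Pairs were not read within a portion, and the part of this mixture in them was not tested. Tnfrsf18 was seen in 75.6% of cells with Tnfrsf4 and 33.3% of cells without it. Tnfrsf9 was seen in 65.5% against 20.2%, and Icos in 63.9% against 26.3%. Without U3 the same 6 pairs passed, where 0.353% of all gene pairs did. Thinning was then drawn 10 more times. All 6 pairs passed in 10 of 10 draws, and without U3 in 8 to 10 of them. Tnfrsf4 with Cd28 passed in 7.

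The counts were lower in the other classes, where Tnfrsf4, Tnfrsf9, Tnfrsf18 and Icos were also seen in fewer cells. The part of this detection in the lower counts was not tested. CD8 T had 3, Tnfrsf4 with Tnfrsf9, Tnfrsf4 with Icos and Tnfrsf18 with Icos, where 0.430% of all gene pairs passed. Without U3 only Tnfrsf18 with Icos did, where 0.317% passed, and it passed in 0 of the 10 further draws. Those draws gave 0 to 3 pairs in CD8 T, and 0 pairs without U3, so the pairs of CD8 T depended on the draw. Other T had 2, Tnfrsf4 with Tnfrsf9 and with Tnfrsf18, where 0.316% of all gene pairs passed, and both passed in 10 of 10 draws. Without U3 the same 2 passed, where 0.164% did, but only in 2 and 4 of the 10 draws. NK cells had 0 of 15 pairs, where 0.223% passed.

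CD8 T cells were divided by genes that the gates do not use. The 98 cells with a UMI of Gzmb, the gene of a cytotoxic granule protease, had more Tnfrsf4 (257 against 92.3 CPM, 2.78-fold), Tnfrsf18 (359 against 151, 2.38-fold) and Icos (299 against 148, 2.02-fold) than the 207 without, where 2.79% of 4019 genes were called higher, and 0 receptors were lower, against 1.89%. Without U3 the ratios were 1.56, 1.73 and 1.51 and none was called, against a background of 0.739%. Gzmb itself was at 29.7 CPM in CD8 T of U3 and at 871 to 1399.9 in U2, D0 and D1. The 117 cells with a UMI of the exhaustion-linked receptors Pdcd1, Havcr2 or Lag3 had 2.50-fold more Tnfrsf4 (231 against 92.2 CPM), where 4.23% of genes were called higher, and 0 receptors were lower, against 1.67%. Without U3 the ratio was 1.27 and not called, where 1.19% of genes were. Division by the proliferation genes Mki67 and Top2a gave 0 receptors higher, where 4.01% of genes were, and 0 lower, against 2.11%. Without U3 Tnfrsf1b was lower in the dividing cells, at 48.3 against 155 CPM, where 0.900% of genes were. No receptor call within CD8 T thus held both with and without U3.

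The same divisions of the regulatory T gate gave 1 call, on Cd28. Cells with Gzmb had 351 CPM of Cd28 against 161 in those without, 2.17-fold higher (1.52 to 3.13), where 1.71% of 3866 genes were. Without U3 it was not called, with a ratio of 1.94 (1.35 to 2.82). The other 6 receptors passed in none of the 3 divisions. In these, 1.71%, 3.67% and 1.22% of genes were higher and 2.28%, 1.55% and 2.41% lower, for Gzmb, proliferation and exhaustion-linked genes.

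Outside lymphocytes, Tnfrsf9 and Tnfrsf1b were the exceptions. The gates there gave 4647 Krt8-high barcodes, 364 macrophages (3 or more UMIs of the complement genes C1qa, C1qb and C1qc), 96 B cells (Cd79a, Cd79b or Ms4a1) and 37 dendritic cells (Flt3, Ccr7, Fscn1, Xcr1 or Clec9a with class II genes). Krt8-high barcodes had 149.8 CPM of Tnfrsf9 (148 to 152), and the 6 tags lay at 158, 166, 132, 154, 127 and 166 CPM in U2, U3, U4, D0, D1 and D4. Dendritic cells had 231 CPM (175 to 299) and macrophages 102 (87.6 to 118), with 71.4 to 107 over 4 tags. The gene was seen in 3801 of 4647 Krt8-high barcodes at full depth (81.8%) and in 13.5% of them at 1000 UMIs, where CD8 T cells had 14.8%. In B cells, which had a median of 1086 UMIs, 1 of 60 showed it at that depth (1.67%). The level in CD8 T was 1.60-fold (1.36 to 1.88) that of Krt8-high barcodes, in NK 3.58-fold and in the regulatory T gate 4.94-fold. In CD8 T of U3, at 54.5 CPM, it was below Krt8-high barcodes of the same tag.

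Free RNA of Krt8-high cells in the droplets was gauged by the keratins. The gates had already set aside barcodes with 5 or more UMIs of these, which limits the gauge. Krt8 and Krt18 summed to 65.1 CPM in CD8 T, 63.7 in the regulatory T gate, 77.5 in other T and 35.8 in NK, against 1095 in Krt8-high barcodes. If all of it were free RNA of Krt8-high cells, it would bring 8.90, 8.72, 10.6 and 4.89 CPM of Tnfrsf9 with it. Of any other receptor it would bring 1.0 CPM or less. RNA from other cells, such as the macrophage RNA in D1, is not covered by this gauge. The lowest measured class level of Tnfrsf9 in lymphocytes was 240.1 CPM, and the lowest of a tag 46.0 CPM, in other T cells of U3.

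Tnfrsf1b was at 102 CPM (87.6 to 118) in macrophages, 7.23-fold above Krt8-high barcodes at 14.1, and its macrophage tags U2, U4, D0 and D1 had 107, 131, 107 and 101 CPM. These overlap the regulatory T gate. Since D1 T cells carried macrophage RNA, Tnfrsf1b in CD8 T of D1 (150.0 CPM) stands beside a Lyz2 level of 925, and the part of macrophage RNA in it was not tested. U2 had 138 CPM of Tnfrsf1b with 0 of Lyz2. Tnfrsf18, Icos, Tnfrsf4, Cd27 and Cd28 were each at 4.04 CPM or less in macrophages. In B cells the highest receptor levels were 25.1 CPM, for Tnfrsf9 and Tnfrsf18, from 4 UMIs each.

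The 9 ligands were read across the same classes. Among the 5 tested, none was called different between the regulatory T gate and CD8 T. Cd86, a ligand of CD28, was at 162 CPM in dendritic cells, 137 in macrophages and 62.9 in B cells. Cd80, the other, was at 45.6 CPM in macrophages and 36.5 in dendritic cells. Tnfsf9, the ligand of 4-1BB, had 56.0 CPM in macrophages, 52.7 in dendritic cells, 44.2 in the regulatory T gate, 35.8 in NK, 23.2 in CD8 T, 22.1 in other T, 6.29 in B cells and 9.52 in Krt8-high barcodes. The ligands of CD28 were thus highest in antigen-presenting classes. Of the 25 UMIs of Tnfsf9 in the regulatory T gate, 15 came from U2.

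Tnfsf4, the ligand of OX40, had 56.7 CPM in dendritic cells and 35.8 in NK cells. The NK level was 4.62-fold above CD8 T (1.62 to 16.1) and called, where 2.88% of genes were, but from only 16 and 5 UMIs. In cells thinned to 1000 UMIs, Tnfsf4 was seen in 2 of 115 NK and 3 of 297 CD8 T cells. The regulatory T gate had 0 UMIs of it, which allows up to 5.31 CPM. Cd70, the ligand of CD27, was at 28.4 CPM in dendritic cells and 17.7 in the regulatory T gate, from 7 and 10 UMIs, 8 of the latter in U2. Icosl was at 50.3 CPM in B cells, from 8 UMIs, a class with 86 of its 96 cells in U3, and at 6.92 in macrophages. Tnfsf18, the ligand of GITR, had 1 UMI in macrophages, 6 in Krt8-high barcodes and 0 in every other class. Tnf and Lta, which bind TNFR2, were at 36.3 CPM in macrophages and 48.0 in other T cells at their highest.

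**Figure D5:**
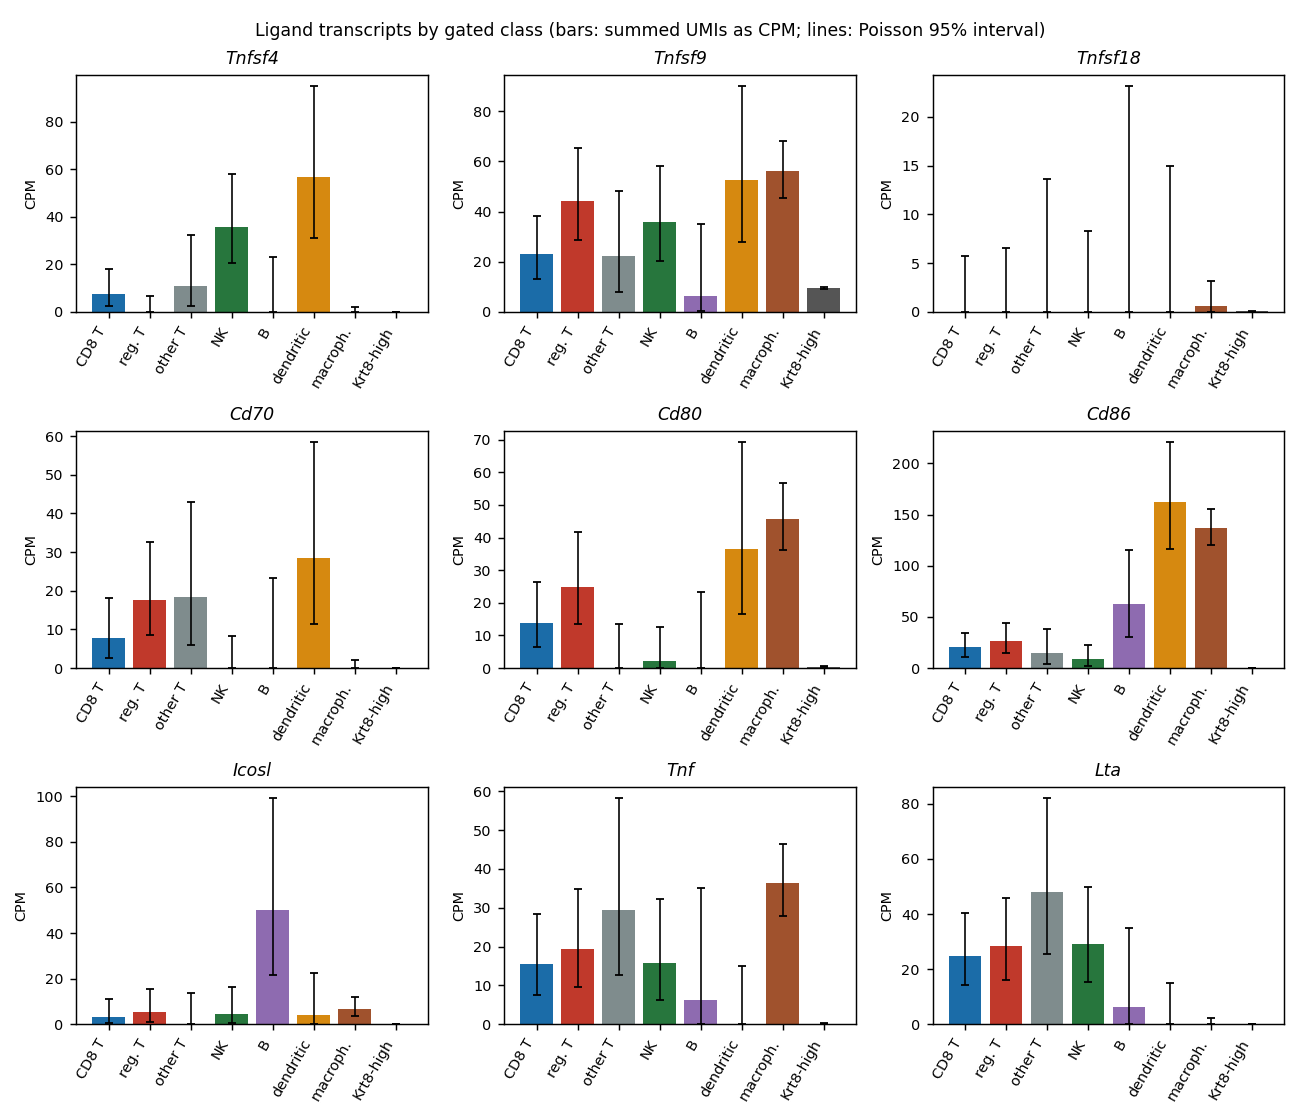
Level of each ligand gene (CPM, vertical axes start at 0 and differ between genes) in the gated classes, with lines for the exact Poisson 95% interval. Cd86 is highest in dendritic cells (162) and macrophages (137), Tnfsf4 in dendritic (56.7) and NK cells (35.8), and Tnfsf18 is at or near 0 in every class.

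Other genes of the pathway were counted from fixed lists. Between the regulatory T gate and CD8 T, the 7 receptors had a median log2 ratio of 1.62, against 0.09 over all genes tested. In the lists below, a gene higher or lower passed the same call, made for 5.20% and 1.39% of all genes. The calls on list genes were made over all tags only. Of 11 other costimulatory receptors 7 were tested, with a median of -0.48. Cd2, the adhesion receptor for CD48, was higher (687 against 308 CPM, 2.23-fold), and Cd226, an activating receptor of cytotoxic cells, was lower (42.5 against 135). Of 9 inhibitory receptors 7 were tested, with a median of -0.43, Ctla4 being higher (681 against 152 CPM, 4.49-fold) and Pdcd1 lower (104 against 211). Of 24 signalling genes 23 were tested, with a median of 0.44. The TRAF genes Traf1 (449.5 against 217 CPM, 2.07-fold) and Traf3 (49.6 against 15.5) were higher and the kinase gene Pik3cd lower. The NF-kB inhibitor gene Nfkbia was at 1393 against 723 CPM, a ratio of 1.93, and the NF-kB subunit gene Rel at 467 against 248, a ratio of 1.89, and neither was called.

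For NK cells against CD8 T, the median over the 7 receptors was -0.95, against -0.07 over all genes, of which 2.88% were called higher and 4.44% lower. Among the other costimulatory receptors 1 of 7 was higher, Cd244, and 4 were lower, Cd2, Cd5, Slamf1 and Slamf6, with a median of -1.88. The inhibitory receptors Pdcd1 and Havcr2 were lower. Of 22 signalling genes tested, 1 was higher, Pik3r1, and 0 were lower. For other T against CD8 T, 1.95% of all genes were called higher and 2.23% lower. Of 7 other costimulatory receptors tested, 1 was higher and 2 were lower, with a median of 0.03. Cd40lg, the CD40 ligand of helper T cells, was higher, at 148 against 3.1 CPM, and Cd226 and Cd244 were lower. Of 7 inhibitory receptors 0 were higher and 1 was lower, Cd160, with a median of -0.89. Of 22 signalling genes 0 were called.

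The genes whose profile was most like that of each receptor were taken over 14 sums of a class in a tag, on log2(CPM + 50), among 2819 genes averaging at least 50 CPM. The sums share 1 library, and U3 sums have low receptor levels, so the coefficients are descriptions with no test. Tnfrsf4 was most like the cytoskeletal gene Vim (r = 0.97), Tnfrsf18 (0.96) and Penk (0.94), the gene of proenkephalin. Over the 11 sums without U3 these were 0.97, 0.98 and 0.97. Tnfrsf18 was most like Ctla4 (0.96), Tnfrsf4 (0.96) and Odc1 (0.95), and these were 0.97, 0.98 and 0.93 without U3. The neighbours on chromosome 4 thus had each other among their 3 nearest genes.

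Icos was most like Zdhhc18 (0.92), Ifrd1 (0.92) and Nrip1 (0.91), with little change without U3. Tnfrsf1b was most like Itgav (0.93), Denr (0.92) and Kdm2b (0.89). Cd27 had Selenof (0.87), Elf1 (0.85) and Uqcrh (0.85), and Cd28 had Stk4 (0.90), Atf7ip (0.85) and Brd8 (0.82). For Tnfrsf9 the nearest genes were Pdcd1lg2 (0.88), Srgn (0.87) and Lcp1 (0.87), which dropped to 0.73, 0.56 and 0.50 without U3.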

How the data were processed

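The deposited file holds whole-number counts of UMIs per gene and antibody tag for 1 pooled lane. Cell Ranger and mm10 are named in the submitters' processing notes, and the file header gives software version 3.1.0 for the authors' matrix. Aligner settings are not given in the sources used here. Gene positions are from GENCODE M21. Tags were called with Seurat 5.3.0 (HTODemux, positive quantile 0.99) in R 4.3.3, which marked 865 passing barcodes as multi-tag, 5590 with 1 tag and 2329 with none. Doublets of 1 tag were not marked. Sums, intervals and ratios were computed in Python 3.11.15 with numpy 2.4.6, scipy 1.17.1 and pandas 2.3.3. The calls were run on counts simulated from the Poisson model that the intervals assume. These counts had no spread between cells or tags, so they cannot show how often such spread gives a false call. The pool had a median of 18388 UMIs per barcode. Intervals are exact (Poisson, conditional binomial, Clopper-Pearson) and cover counting error only. A count of 0 allows 3 UMIs or cells. Named are the 7 receptors, their 9 ligands, the 4 most abundant genes of each other list and list genes called, and the 3 genes most like each receptor. Other genes were named after their values were seen. Members and lists were chosen with earlier results of these data known. There were 21 alternatives. They concerned the gates, depth, filters, fold and each tag left out, and the portions of the regulatory T gate, the divisions and pairs without U3 and 10 further thinning draws were added after seeing the data. A planned division of the cells, and a gene in each of 2 lists, are not reported here.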

Additional observations from a re-analysis of the deposited data

Results flagged for a closer look

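In 1 of 14 groups of a receptor in a class with 4 or more tags, the highest or lowest tag lay far from the others. Cd27 in the regulatory T gate was at 155 CPM in tag D0, from 10 UMIs, while the other tags lay between 90.4 and 106 CPM. Chance flags about 1 in 20 such groups.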

How the results depend on the processing

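Of 91 values of the receptors in the regulatory T gate against CD8 T, 74 moved by less than their interval, 17 moved more and 0 reversed. No called ratio changed direction, and the causes of the shifts were not tested. Uncalled ratios did cross 1. They were Tnfrsf9 (0.598 without U2) and Cd28 (0.723 with the gates as first written) in other T against CD8 T, Cd28 (1.2, the same gates) in the regulatory T gate against other T, and Cd27 (0.606 at 1000 genes) in the regulatory T gate against CD8 T, among others.
With the gates as first written, NK against CD8 T gave 0 receptors higher, NK against the regulatory T gate 295 genes lower, other T against CD8 T 0 receptors higher, 2 lower and 249 genes lower, and the regulatory T gate against CD8 T 190 genes higher and 156 lower. With a minimum of 1000 genes these were 0 receptors higher (NK against CD8 T), 1 lower (other T against CD8 T), 2 higher, Tnfrsf4 and Icos, with 194 genes (regulatory T gate against CD8 T) and 0 higher with 139 genes higher and 46 lower (regulatory T gate against other T). Without a keratin limit NK against CD8 T gave 0 receptors higher, and the regulatory T gate against CD8 T 139 genes lower. Genes of 50 or more UMIs gave 90 higher and 141 lower (NK against CD8 T), 318 lower (NK against the regulatory T gate), 59 higher and 75 lower (other T against CD8 T), and 171 higher and 51 lower (regulatory T gate against other T). With Foxp3 alone as the gate, other T against CD8 T gave 4 receptors and 204 genes higher and 69 lower, and the regulatory T gate against other T 2 receptors higher. A CD3 gate of 1 gave 334 genes and 1 receptor higher and 1 receptor lower in other T against CD8 T, and 152 genes lower in the regulatory T gate against other T, and a gate of 3 gave 2 receptors higher there. A minimum of 200 genes, or multi-tag barcodes kept, gave 1 receptor higher in other T against CD8 T, and the latter 1 lower. At 1.5-fold, 5 receptors were lower in NK against CD8 T and 129 genes in the regulatory T gate against CD8 T.
Leaving out each tag gave 158 to 251 genes lower and 0 to 1 receptors higher in NK against CD8 T, and 328 to 537 genes lower in NK against the regulatory T gate. In other T against CD8 T it gave 54 to 99 genes and 1 to 3 receptors higher and 0 to 1 lower. In the regulatory T gate against other T it gave 130 to 305 genes and 1 to 4 receptors higher. In the regulatory T gate against CD8 T 4 to 5 receptors were higher.
Without U3, divisions of CD8 T by Gzmb gave 0 receptors higher (3 with it), by Pdcd1, Havcr2 or Lag3 0 (1) and by Mki67 or Top2a 1 lower (0). Those of the regulatory T gate gave 0 higher by Gzmb (1). Receptor pairs seen together were 1 in CD8 T (3), and over 10 further thinning draws 0 to 3 in CD8 T, 2 to 3 in other T and 6 to 10 in the regulatory T gate.
No paired test over tags was run, although a tag holds cells of several classes. Values within tags are given in its place. Depth limits Tnfrsf1b, Cd27 and most ligands, whose class sums hold few UMIs, and the per-tag values of classes under 40 cells.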
